A study of Homo sapiens with 8 samples.

Results

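A pair of TRAIL-resistant subclones of one leukaemia line, TR1 and TR2, were compared with each other at the level of RNA: the comparison rests on 4 of the 8 arrays of the study, 2 of TR1 and 2 of TR2, chosen by their labels. The parent of both is Jurkat, an established human T cell leukaemia line, and the untreated parental cells (WT) are sensitive to TRAIL. TR1, TR2 and a further subclone, TR3, grew out of Jurkat cultures kept under TRAIL at 1000 ng/mL for 12 weeks. Each line has 2 biological duplicates, numbered 1 and 2, and no treatment is recorded at harvest. Each subclone stands for itself alone: there is 1 line behind each name and no unselected subclone of Jurkat, so differences between TR1 and TR2 cannot be told apart from differences that any pair of Jurkat subclones would have. WT and TR3 are given beside many of the values to show where they lie. Words such as rose and fell mean TR2 against TR1 and not a change from WT.

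TRAIL (TNFSF10) is a ligand of the tumour necrosis factor family. It binds the death receptors TNFRSF10A (DR4) and TNFRSF10B (DR5), whose cytoplasmic death domains recruit the adaptor FADD and the initiator caspases CASP8 and CASP10 into a death-inducing complex. The decoy receptors TNFRSF10C and TNFRSF10D bind the ligand without passing on a full death signal, and CFLAR (c-FLIP), a caspase-like protein that mostly lacks protease activity, competes for places in the complex.

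Probe brightness was read on Illumina HumanRef-8 arrays of 22184 probes, and values below are the authors' processed intensities, which are linear and share one distribution across arrays. Between 12408 and 13437 probes per array were detected above background. The TR1 arrays correlated with each other at r = 0.997 and the TR2 arrays at r = 0.9963, against 0.9898 to 0.993 between the clones, across probes, which are not independent replicates. All 10 T cell markers looked at were bright enough to be tested. CD247, the zeta chain of the T cell receptor, read 7011 and 7256 in TR1 and 6477 and 7162 in TR2, and CD3E read 1911 to 2199 and 1691 to 1737, whereas CD4 was not detected on either TR1 array and on 1 of the TR2 arrays. Most markers of other cell types were too dim to be tested (4 of 9 B cell markers on the array, 2 of 6 NK cell, 1 of 8 myeloid, 1 of 5 erythroid and 2 of 9 fibroblast and epithelial markers were tested). Of the T cell markers 3 were called lower in TR2 (CD2, -0.52; TRAT1, -0.39; CD3D, -0.31), and of the others CD79A (0.75), NCAM1 (0.37) and CD68 (0.27) were higher and COL1A1 (-0.39) was lower, with these 4 reading 194 at most on the TR1 and TR2 arrays. Without the replicate block none of these T cell marker calls, with 3 lower at an unadjusted p under 0.05 in limma, and neither of the CD79A and CD68 calls was made.

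TR2 and TR1 differed widely but mostly by small amounts. Of 10681 genes tested, 701 were higher in TR2 (6.56%) and 557 were lower (5.21%) at a Benjamini-Hochberg adjusted p under 0.05 in limma, with the replicate number as a block. The counts given below for gene lists are to be set beside these shares. By probe, 822 of 13130 were higher (6.26%) and 659 were lower (5.02%). Of these, 56 of the genes called higher (0.524% of those tested) and 23 of those called lower (0.215%) differed by 2-fold or more, and the median size of a called difference was 0.39 on the log2 scale. The same arrays gave 463 probes higher (3.53%) and 688 lower (5.24%) in TR1 against WT, and 258 higher (1.96%) and 252 lower (1.92%) in TR2 against WT. Called probes moved the same way in both numbered pairs without exception, and the TR1 and TR2 values did not overlap for 792 of the 822 higher probes and 651 of the 659 lower ones, against 22.8% and 26.4% of all probes tested. Probes are called for a difference that is large against the spread of the duplicates. Both counts therefore follow in part from the calling and are a description. Without the block, limma called 408 probes higher and 264 lower, all of them among the 822 and 659. Without the second TR2 array it called 417 and 219.

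**Figure D1:**
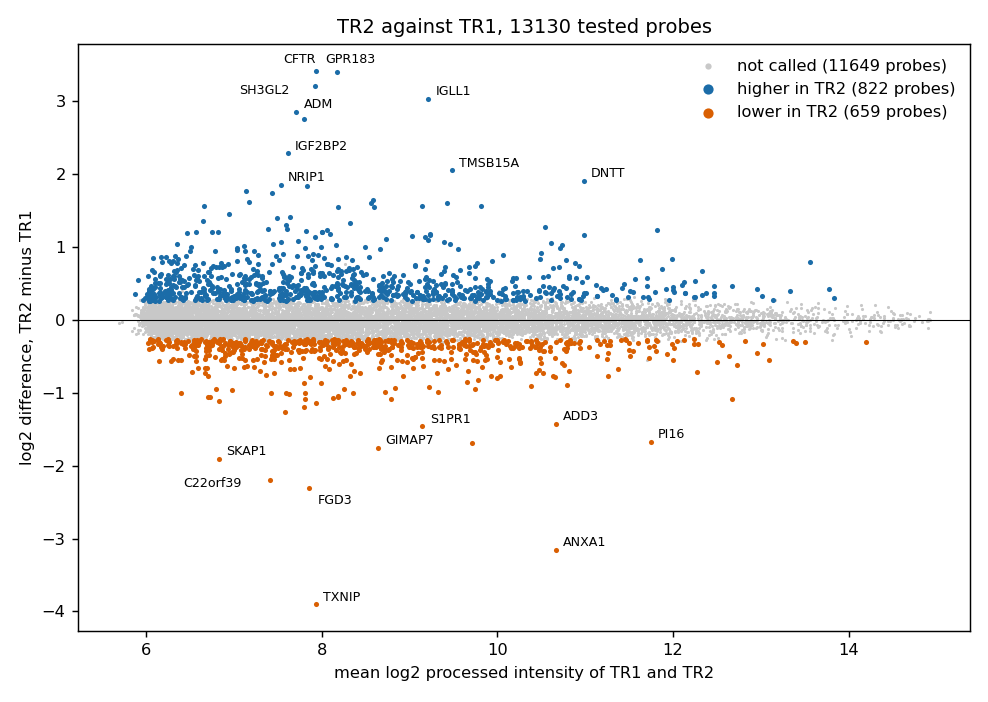
Each point is 1 of 13130 tested probes. The horizontal axis is the mean log2 processed intensity of the 4 TR1 and TR2 arrays and the vertical axis is the log2 difference, TR2 minus TR1, with called probes in blue (822 higher in TR2) and orange (659 lower). Most called probes lie close to the line at 0, and the named genes from TXNIP at -3.90 to GPR183 at 3.42 stand outside that band.

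The genes highest in TR2 against TR1 belong to different functions. GPR183, a receptor that guides lymphocytes along oxysterol gradients, read 69.2 and 81.3 in TR1 and 994 and 650 in TR2, beside 99.7 and 92.9 in TR3 and 233 and 204 in WT. TR2 was therefore far above every other line and TR1 the lowest of all, detected above background on 1 of its 2 arrays. The log2 difference was 3.42 ± 0.13 (SE, n = 2 per clone), 10.7-fold (limma adjusted p = 6.6e-13). Starting from background-corrected (normexp) intensities without the block it was 22.3-fold, and like it 24 of the 107 called genes named here differed by a fold over 1.5 times larger in that fit. CFTR, the chloride channel mutated in cystic fibrosis, read 88.7 on both TR1 arrays and 1152 and 769 in TR2, a log2 difference of 3.41 ± 0.12. TR3 read 71.7 and 64.8 and WT 138 and 88.0. TR1 was not called against WT for CFTR (limma adjusted p = 0.12), whereas for GPR183 it lay below WT by 1.54 on the log2 scale. TR3 was called below WT for CFTR (-0.69, limma adjusted p = 0.0038).

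SH3GL2 encodes endophilin A1, which bends membranes during endocytosis. It read 85.5 and 74.5 in TR1, 787 and 690 in TR2, 169 and 116 in TR3, and 328 and 221 in WT, with a TR2 minus TR1 difference of 3.21 ± 0.10 (limma adjusted p = 9.4e-14). TR1 and TR2 thus lay on opposite sides of the parental line. Its relative SH3GL3 (endophilin A3) was also higher, from 252 and 256 in TR1 to 473 and 547 in TR2 (log2 difference 1.00 ± 0.09). Of 19 tested endophilins and membrane-curving proteins, those were the 2 called higher (10.5%, against 6.56% of all genes tested). BIN1 (-0.31) was the 1 called lower (5.26%, against 5.21%), and that call was lost without the block (limma adjusted p = 0.15).

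IGF2BP2, an RNA-binding protein that stabilises bound messenger RNAs, read 85.7 and 91.4 in TR1 and 417 and 449 in TR2 (log2 difference 2.29 ± 0.09). It was the 1 called member of 5 tested oncofetal genes of the IGF2BP, LIN28 and HMGA families. TMSB15A, an actin-binding thymosin, rose from 290 and 422 to 1422 and 1491 (2.06 ± 0.12). NRIP1 (RIP140), a corepressor of nuclear receptors, rose from 93.2 and 101 to 343 and 362 (1.86 ± 0.09).

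The other leading genes higher in TR2 were RAI14, an actin-associated ankyrin-repeat protein (1.84), the zinc-finger gene ZNF544 (1.77), ENHO, which encodes the peptide adropin (1.74), PRG4, which encodes the joint lubricant lubricin (1.61), and HERC5, the ligase that attaches ISG15 (1.60). In each of these 5 the lower TR2 array lay above the higher TR1 array.

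TXNIP had the largest difference of the leading genes lower in TR2. It encodes thioredoxin-interacting protein, an alpha-arrestin that binds thioredoxin and holds back glucose uptake. The probe read 740 and 1211 in TR1, 69.4 and 58.0 in TR2, 56.1 and 53.1 in TR3, and 126 and 206 in WT. TR1 was therefore above all other lines, and TR2, detected on 1 of its 2 arrays, lay with TR3 below the parent. The log2 difference was -3.90 ± 0.17, or 14.9-fold (limma adjusted p = 4e-12), and 36.6-fold from the normexp-corrected intensities without the block. Among 12 tested alpha-arrestins, thioredoxins and glucose sensors TXNIP was the 1 called gene. ARRDC4, an alpha-arrestin known to respond to the same glucose sensors, read 68.3 and 69.5 in TR1 and 69.5 and 71.8 in TR2 (log2 difference 0.04, limma adjusted p = 0.86). Those ARRDC4 values are close to background, where a difference could hardly be seen.

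TXNIP is known as a target of the glucose-responsive factors MondoA and ChREBP, which bind a carbohydrate response element made of a pair of E-box-like sites. The genes of these factors, MLXIP and MLXIPL, were too dim to be tested, and a part of glucose sensing was not tested. The 250 bases before its start are shown because this gene carries the largest difference. They lie at chr1:145996580-145996829 on the minus strand (RefSeq, GRCh38.p14), are written 5′ to 3′ as transcribed, and the capitals mark 1 match to a tandem carbohydrate response element, written as CACGNG, 5 bases of any kind and CACGNG again. This form of the motif was written down after the sequence was read.
TXNIP: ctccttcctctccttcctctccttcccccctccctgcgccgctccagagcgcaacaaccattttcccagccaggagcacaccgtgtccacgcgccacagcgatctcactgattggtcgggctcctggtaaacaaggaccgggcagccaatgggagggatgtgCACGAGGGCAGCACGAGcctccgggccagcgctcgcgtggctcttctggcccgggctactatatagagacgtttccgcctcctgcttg
The match starts 88 bases before the start, and 16 of 27305 promoter windows of this length hold one on either strand (0.0586%). Of the genes with a window, 0 of 572 called higher in TR2, 2 of 454 called lower (0.441%), TXNIP itself being 1 of them, and 12 of 7849 not called (0.153%) hold it.

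ANXA1, annexin A1, a calcium-dependent membrane-binding protein with anti-inflammatory actions, read 5163 and 4564 in TR1, 616 and 483 in TR2, 923 and 1056 in TR3, and 2378 and 3294 in WT (log2 difference, TR2 minus TR1, -3.15 ± 0.13). TR1 was the brightest line and TR2 the dimmest. FGD3, an exchange factor for the small GTPase Cdc42, read 519 and 508 in TR1 and 132 and 81.5 in TR2 (-2.31 ± 0.11), with TR3 and WT between them. PI16, a peptidase inhibitor-like surface protein, read 6136 on both TR1 arrays and 2384 and 1562 in TR2 (-1.67 ± 0.11), while TR3 and WT lay between 1901 and 2875, so TR1 stood alone.

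The next genes lower in TR2 included ADD3, a subunit of the adducin membrane skeleton, with -1.42 on its brighter probe and -1.68 on the other. MYLIP, the ubiquitin ligase that degrades the LDL receptor, differed by -1.26, RIPOR2 by -1.19, the kinase SGK1 by -1.09 and the pseudokinase TRIB2 by -1.08. Both clones' values were separate for all 5. C22orf39 (-2.20 ± 0.70, limma adjusted p = 0.049) and the keratin KRT1 (-1.14 ± 0.27, adjusted p = 0.0083) were called on uneven values. C22orf39 read 373 and 357 in TR1 and 358 and 17.6 in TR2, 17.6 being the floor of the table, so that the clones overlapped. It entered the test through TR1, the 1 line with both arrays detected, its call was lost with no dim filter (adjusted p = 0.066), and the size of its difference rests on that floor. KRT1 read 222 and 596 in TR1 and 207 and 132 in TR2. Neither call stood without the block (adjusted p = 0.42 and 0.095), without the second TR1 array or without the second TR2 array.

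**Figure D2:**
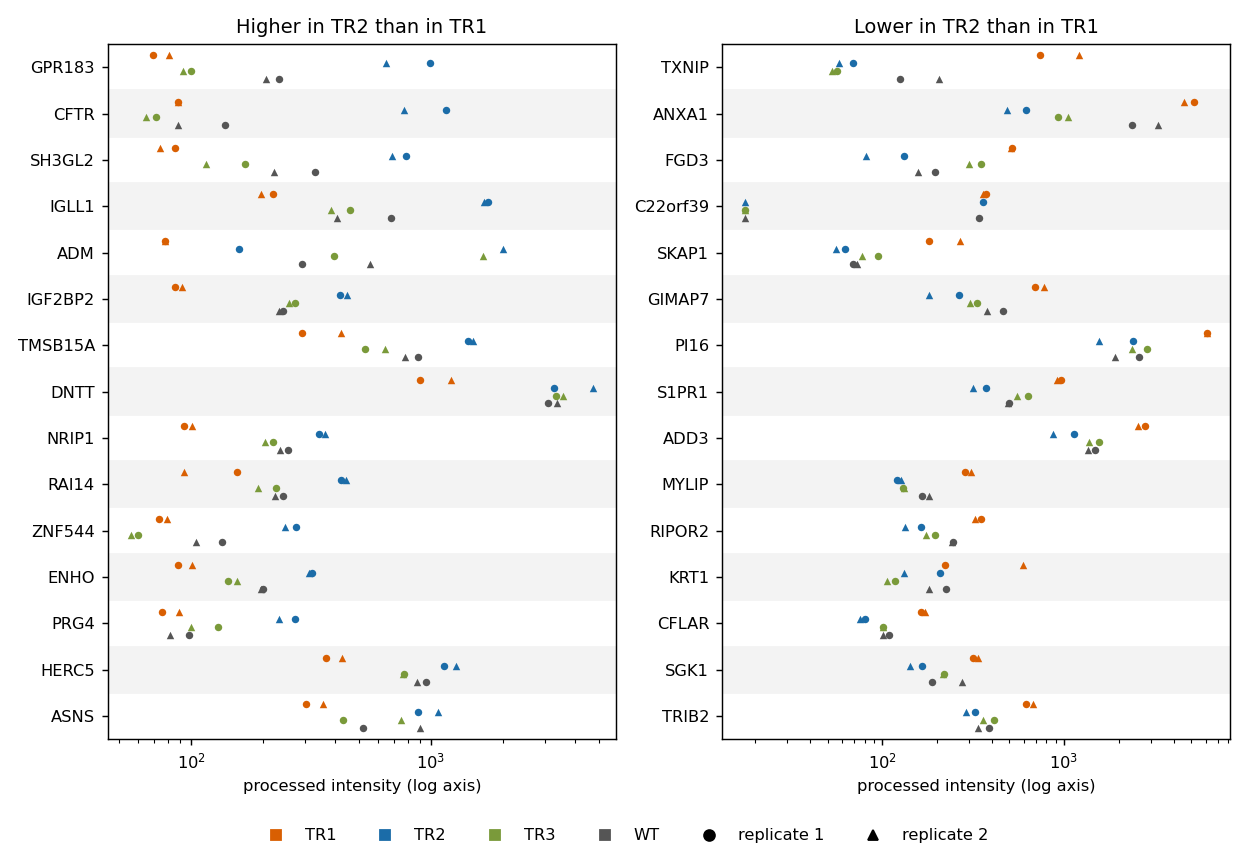
Processed intensity (log axis) of the 15 genes with the largest differences in each direction, 1 point per array, coloured by line and shaped by replicate number. In the left panel every TR2 point lies to the right of both TR1 points. In the right panel every TR2 point lies to the left of both TR1 points except for C22orf39, where 1 TR2 array at 358 lies among the TR1 arrays.

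In the pathway that the cells were selected on, CFLAR, lower in TR2, was the 1 called gene of 7 tested, and TNFSF10 and CASP10 lay near the threshold. Its probe read 163 and 172 in TR1, 80.5 and 75.1 in TR2, 101 on both TR3 arrays, and 109 and 101 in WT. TR1 lay above the parent and TR2 below it, with a TR2 minus TR1 difference of -1.11 ± 0.08, or 2.16-fold (limma adjusted p = 1.8e-08), and 3.42-fold from the normexp-corrected intensities without the block. A single probe was tested, and which c-FLIP isoforms it reads was not analysed here. In TR1 the log2 difference from WT was 0.68 ± 0.08 (adjusted p = 2.3e-05), and in TR2 it was -0.43 ± 0.08 (adjusted p = 0.0056). These comparisons share the WT arrays.

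The ligand TNFSF10 read 79.7 and 74.6 in TR1 and 96.0 and 93.9 in TR2, without overlap, but the log2 difference of 0.30 ± 0.10 did not pass (adjusted p = 0.056). It passed with array weights (adjusted p = 0.034), a trended robust prior (0.033), the 4 arrays with the block (0.023) and without either WT array (0.014). The death receptor TNFRSF10B read 468 and 531 against 403 and 482, which overlapped (-0.18 ± 0.09, adjusted p = 0.23). The decoy receptor TNFRSF10C read 71.5 and 71.0 against 63.5 and 65.1 and was not detected on either TR2 array, so that its difference has only a bound (adjusted p = 0.35). The caspase CASP10 read 98.0 and 94.2 against 80.8 and 80.0 (-0.26 ± 0.09, adjusted p = 0.058), and passed with array weights (0.049), a trended robust prior (0.037) and without either WT array (0.038).

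FADD read 919 and 934 against 946 and 841 (-0.05, adjusted p = 0.77), and CASP8 read 142 and 150 against 163 and 149 (0.10, adjusted p = 0.64; -0.02 on its other probe). Both pairs overlapped. TNFRSF10A, TNFRSF10D and TNFRSF11B are on the array but were too dim in all 4 lines to be tested, and dimness in such a bulk measure cannot separate fewer expressing cells from less RNA per cell. Over the 7 tested genes the median difference was -0.148, against -0.0116 over all genes tested.

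**Figure D3:**
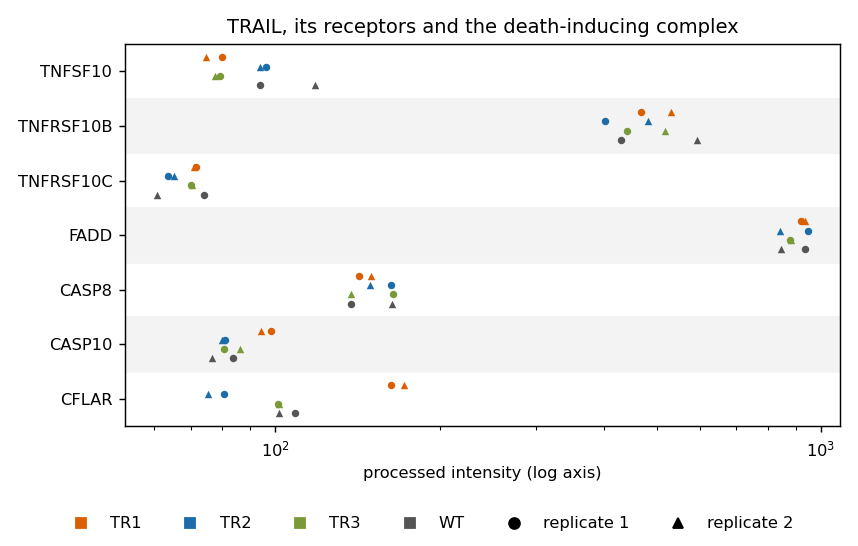
Processed intensity (log axis) of the 7 tested genes of the TRAIL pathway, 1 point per array, coloured by line and shaped by replicate number. CFLAR is the gene in which TR1 (163 and 172) and TR2 (80.5 and 75.1) lie on opposite sides of WT (109 and 101), and the FADD, CASP8 and TNFRSF10B values of the clones overlap.

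Among 23 other tested TNF family members and NF-kB genes, 3 fell and 1 rose, with a median difference of -0.123. LTB, lymphotoxin beta, read 139 and 172 in TR1 and 82.1 and 78.2 in TR2 (-0.95 ± 0.10, limma adjusted p = 2.1e-06). TR3 read 85.5 and 78.5 and WT 102 and 91.0, nearer to TR2. NFKBIA, the inhibitor of NF-kB that NF-kB itself induces, read 1455 and 1402 against 957 and 871 (-0.65 ± 0.09), and TR3 and WT lay with TR2, between 954 and 1079. CD70, the ligand of CD27, fell by 0.40 and TNFAIP3 (A20), a deubiquitinase that restrains NF-kB, differed by 0.32. These last 2 calls were lost without the block (adjusted p = 0.079 and 0.31), CD70 also without the second array of either clone and TNFAIP3 without the first TR1 array or either TR2 array.

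In the mitochondrial arm of apoptosis, 0 of the 15 tested BCL2 family members were called by limma and 3 had an unadjusted p under 0.05, where 6.56% of all genes tested were called higher and 5.21% lower. The lowest adjusted p belonged to BIK, a BH3-only killer protein, which read 551 and 603 in TR1 and 686 and 693 in TR2 (0.26 ± 0.08, adjusted p = 0.053). It was called with array weights (adjusted p = 0.043) and without either WT array (0.035). It was followed by the survival protein BCL2L2 (0.22, adjusted p = 0.11). Of 16 apoptosome, caspase and inhibitor-of-apoptosis genes, CYCS (cytochrome c) was called, at 274 and 305 against 224 and 254 (-0.28 ± 0.08, adjusted p = 0.036). That call stood neither without the block (adjusted p = 0.25) nor without any single array of TR1, TR2 or TR3.

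Genes of glycolysis and the hypoxia response were more often higher in TR2. Of 23 tested, 9 were called higher (39.1%, against 6.56% of all genes tested) and 1 lower (4.35%, against 5.21%), with a median of 0.272. This group also moved with the replicate number. In 17 of the 23 the second replicate was above the first in all 4 lines (73.9%, against 12.4% of all genes tested), with a median log2 difference between the replicates of 0.41. Without the replicate block limma called 0 of the 23 in either direction, with 5 higher at an unadjusted p under 0.05. Without the first TR1 array 5 were called higher, and without the second TR1 array or the second TR2 array 4 were. What the numbered replicates shared was not recorded in the labels, and its part in the result was not tested.

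ADM, which encodes the vasodilator peptide adrenomedullin, read 77.9 on both TR1 arrays but 159 and 2001 in TR2, 394 and 1649 in TR3, and 289 and 556 in WT. Every line except TR1 was brighter in replicate 2, and TR1 was the lowest line. The TR2 minus TR1 difference was 2.85 ± 0.45 (limma adjusted p = 0.00019), ranging from 1.53 to 4.18 over fits without 1 array, with an adjusted p of 0.11 without the block. BNIP3, a mitophagy receptor, read 1440 and 3906 in TR1 and 2568 and 6832 in TR2 (0.82 ± 0.16, adjusted p = 0.0012, and 0.45 without the block). Each TR2 array was above the TR1 array of the same number, yet the clones overlapped.

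ANKRD37, a small ankyrin-repeat protein, differed by 0.54 (adjusted p = 0.36 without the block). The aldolase ALDOC was the called member that was lower, at -0.56 (adjusted p = 0.49 without the block). Both calls were also lost without the second array of either clone, and that of BNIP3 without the first TR1 array or the second TR2 array. The other members called higher were the regulatory enzyme PFKFB3 (0.51), the isomerase GPI (0.45), the mitophagy receptor BNIP3L (0.45), the aldolase ALDOA (0.42), the hexokinase HK1 (0.32) and the phosphofructokinase PFKP (0.31).

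**Figure D4:**
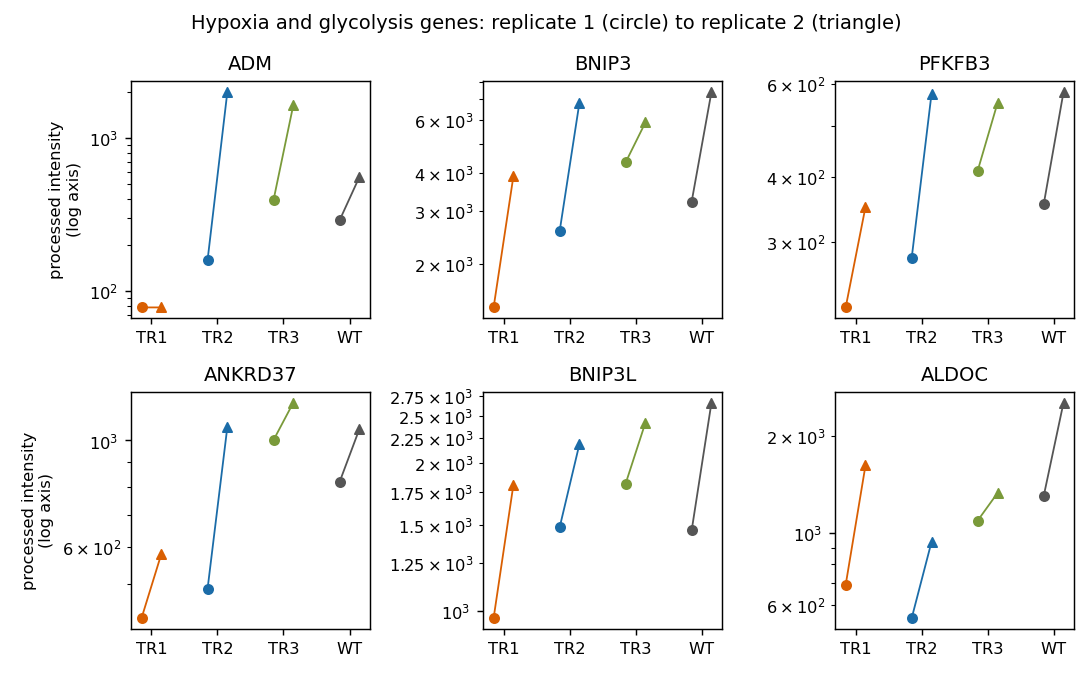
Processed intensity (log axis) of 6 called genes of glycolysis and the hypoxia response, chosen after their values were seen, with a line from replicate 1 (circle) to replicate 2 (triangle) in each line of cells. Replicate 2 is above replicate 1 in every panel and line except ADM in TR1, where both read 77.9. For ADM, BNIP3, PFKFB3, ANKRD37 and BNIP3L each TR2 point is above the TR1 point of the same number, and for ALDOC it is below.

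BNIP3 and ANKRD37 are textbook targets of hypoxia-inducible factors, which bind the core ACGTG. Their 250 bases before the start (RefSeq, GRCh38.p14) are shown because both genes moved with the clone and with the replicate. BNIP3 lies at chr10:131981924-131982173 on the minus strand and ANKRD37 at chr4:185396591-185396840 on the plus strand, written 5′ to 3′ as transcribed, with the core on either strand in capitals. Where CACGTG is in capitals, the core is read on both strands and counted as 1 site.
BNIP3: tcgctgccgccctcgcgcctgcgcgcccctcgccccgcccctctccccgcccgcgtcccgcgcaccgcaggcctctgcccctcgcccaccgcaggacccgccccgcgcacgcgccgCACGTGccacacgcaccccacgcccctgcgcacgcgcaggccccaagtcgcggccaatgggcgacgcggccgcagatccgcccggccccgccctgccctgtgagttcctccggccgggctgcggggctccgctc
ANKRD37: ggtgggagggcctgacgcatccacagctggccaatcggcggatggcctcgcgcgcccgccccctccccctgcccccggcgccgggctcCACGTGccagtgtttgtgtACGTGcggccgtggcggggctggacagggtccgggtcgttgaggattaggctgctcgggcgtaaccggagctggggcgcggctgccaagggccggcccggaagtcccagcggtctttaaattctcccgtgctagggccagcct
The BNIP3 site starts 134 bases before the start, and those of ANKRD37 start 162 and 143 bases before it. The core is common, being found in 18.7% of all windows. It was in the windows of 22.7% of the genes called higher in TR2, 23.8% of those called lower and 23.6% of those not called.

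Of 27 tested genes of the amino acid response and unfolded protein stress, 4 rose and 2 fell, with a median difference of 0.069. ASNS, asparagine synthetase, read 302 and 355 in TR1, 883 and 1071 in TR2, 431 and 752 in TR3, and 520 and 902 in WT. TR2 was above TR1 on every array, by 1.57 ± 0.12 (limma adjusted p = 1.8e-08), and the call stood without the block. DDIT4 (REDD1), an inhibitor of mTOR complex 1, read 867 and 1356 against 1474 and 3438 (1.05 ± 0.13), and the stress factor ATF3 differed by 0.41. Those calls were lost without the block (adjusted p = 0.15 and 0.53). In this group 11 of 27 genes were higher in replicate 2 in all 4 lines (40.7%), and the part of this in the calls was not tested.

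XBP1, the transcription factor of the unfolded protein response, went the other way, at 739 and 910 in TR1 and 451 and 545 in TR2 (-0.73 ± 0.09, adjusted p = 1.6e-05). The other called members were SHMT2 (0.33), a mitochondrial serine hydroxymethyltransferase, and EIF4EBP1, a repressor of translation that was not detected in TR2 and was at least 1.14-fold higher in TR1. Without the second TR2 array 2 genes of the group were called higher, and without the second TR1 array or the first TR2 array 1 was called lower.

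ASNS is a known target of ATF4, which binds an amino acid response element. The 250 bases before 1 of its starts, at chr7:97872409-97872658 on the minus strand (RefSeq, GRCh38.p14), are shown because it is the member of the group with the largest difference. The annotated gene runs from 97851677 to 97928441, so this start lies inside it and is not the outermost one. The capitals mark TGATGNAA.
ASNS: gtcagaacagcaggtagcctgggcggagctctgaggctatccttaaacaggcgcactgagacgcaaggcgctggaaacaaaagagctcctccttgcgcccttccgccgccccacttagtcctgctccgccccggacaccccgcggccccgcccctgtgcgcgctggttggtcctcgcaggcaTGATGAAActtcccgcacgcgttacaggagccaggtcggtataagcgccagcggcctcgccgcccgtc
The match starts 68 bases before the start, and 3.19% of all windows hold one on either strand. It was in the windows of 2.45% of the genes called higher in TR2, 0.881% of those called lower and 1.43% of those not called. ATF4 itself read 8336 and 9382 in TR1 and 8790 and 8624 in TR2, which overlapped (-0.02, limma adjusted p = 0.93). Its RNA does not measure the amount or activity of the protein, and a part of ATF4 in the ASNS difference was not tested.

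Some genes of early lymphocyte development were higher in TR2. Of 11 tested genes of V(D)J recombination and surrogate receptor chains, 3 were called higher and 8 were not called, with a median of 0.147. IGLL1, the lambda5 surrogate light chain of the precursor B cell receptor, read 219 and 196 in TR1, 1726 and 1666 in TR2, 458 and 385 in TR3, and 680 and 407 in WT (3.03 ± 0.12, limma adjusted p = 1.1e-12), and its other probe gave 2.76. TR2 was the brightest line and TR1 the dimmest. DNTT, the terminal transferase that adds untemplated nucleotides to rearranging receptor genes, read 903 and 1214 in TR1 and 3255 and 4743 in TR2 (1.91 ± 0.10). TR3 and WT lay between 3089 and 3539, so for DNTT it was TR1 that stood apart.

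RAG1, a subunit of the recombinase, read 74.0 and 73.8 in TR1 and 157 and 187 in TR2 (1.21 ± 0.13). Its partner RAG2 and the pre-T receptor chain PTCRA were too dim to be tested. Those 3 calls stood without the block and without any single array. CD79A, a B cell receptor subunit, was the 1 called gene of 4 tested B cell markers, at 88.3 and 94.2 in TR1 and 120 and 194 in TR2 (0.75 ± 0.12), while MS4A1, PAX5, EBF1, CD22 and BLNK were not bright enough to be tested. That call was lost without the block.

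The CD1 molecules present lipids and mark cortical thymocytes. Of the 5, CD1B was higher in TR2, at 8699 and 9651 in TR1, 15289 and 16486 in TR2, and 6282 to 8351 in TR3 and WT (0.79 ± 0.08, limma adjusted p = 1.3e-06). CD1E was also higher, at 81.2 and 85.8 in TR1 and 134 and 140 in TR2 (0.71 ± 0.08). CD1A (-0.05), CD1C (-0.30) and CD1D (-0.12) were not called in either direction.

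In the T cell receptor complex and its proximal signalling, 6 of 28 tested genes were lower in TR2 and 2 higher, with a median of -0.102, and all of the differences were small. The adhesion receptor CD2 read 1625 and 2308 in TR1 and 1348 and 1349 in TR2 (-0.52 ± 0.10), and the adaptor LCP2 (SLP-76) fell by 0.42. The phosphatase UBASH3B (0.43) and the adaptor SIT1 (0.39) were higher. None of those 4 calls stood without the block (adjusted p = 0.081, 0.057, 0.095 and 0.35), where 1 gene of the group was called lower. Without the second TR2 array 2 were called lower, and the UBASH3B and SIT1 calls were lost without the second array of either clone.

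Of 34 tested transcription factors of thymocytes and T cell leukaemia, 7 were lower in TR2 and 5 higher, with a median of -0.0279. KLF2, which maintains quiescence and switches on S1PR1 in mature T cells, read 9977 and 8999 in TR1 and 6020 and 3349 in TR2 (-1.08 ± 0.12, limma adjusted p = 4.4e-06), with TR3 and WT between 5861 and 8273. ID3, an inhibitor of E proteins, was lower by 0.71, HES1, a target of Notch signalling, by 0.68, and RUNX3 by 0.70. Set against WT, ID3 differed by 0.63 in TR1 and -0.08 in TR2, and HES1 by 0.87 and 0.19. For both genes it was therefore TR1 that stood apart. RUNX3 differed from WT by -0.12 in TR1 and -0.83 in TR2. The other RUNX3 probe, near background at 69.5 to 77.6, gave 0.01, and the RUNX3 call was at the threshold without the block (adjusted p = 0.051). NOTCH1 itself was higher by 0.38. Without the block the 5 higher calls were lost, with 6 genes of the list higher at an unadjusted p under 0.05, and 6 of the 7 lower calls were made. Without the first TR1 array 2 genes were called higher, and without either TR2 array 1 was.

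The GIMAP genes encode small GTPases of lymphocyte survival that lie side by side in the genome. All 6 that were tested differed: 5 were lower in TR2 and 1 was higher, with a median of -0.849. GIMAP7 read 695 and 778 in TR1, 263 and 180 in TR2, and 304 to 460 in TR3 and WT (-1.75 ± 0.12, limma adjusted p = 2.6e-09). GIMAP1 was 2.01-fold lower, and GIMAP5 differed by -0.93 and GIMAP4 by -0.77. For GIMAP4 both clones were below the parent, at 1240 and 1304 in TR1 and 871 and 635 in TR2 against 2752 and 2634 in WT. GIMAP2 (-0.40) was lower, and GIMAP6 (0.68), at 175 and 205 in TR1 and 332 and 276 in TR2, went the other way. GIMAP8 was too dim to be tested, and the counts were the same without the block.

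Receptors of lymphocyte adhesion and positioning were split. Of 22 tested, 6 were lower in TR2 and 3 higher, GPR183 among them, against 4 and 2 without the replicate block. S1PR1, which draws lymphocytes out of lymphoid organs along sphingosine 1-phosphate, read 963 and 915 in TR1, 372 and 314 in TR2, 634 and 548 in TR3, and 501 and 492 in WT (-1.46 ± 0.09, limma adjusted p = 4.8e-10). TR1 was thus above the parent and TR2 below it, the reverse of GPR183. GPR18, a lipid-responsive receptor of lymphocytes, differed by -0.97, and CD99, a surface protein of thymocytes, read 2766 and 3124 in TR1 and 4445 and 5112 in TR2 (0.70 ± 0.09). The integrin chains ITGAL (-0.56), ITGA5 (-0.57) and ITGB2 (-0.28) were lower and ITGA4 (0.41) was higher.

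SKAP1 is an adaptor that couples the T cell receptor to integrin activation through FYB1 (ADAP) and the small GTPase Rap1. It read 181 and 269 in TR1 and 62.4 and 55.4 in TR2, where it was not detected on either array, so TR1 was at least 3.27-fold higher (limma adjusted p = 6.4e-09, with a measured log2 difference of -1.91). WT, at 68.9 and 73.1, lay near TR2. Its partner FYB1 was not called (0.17, adjusted p = 0.27). Of the 16 tested genes around SKAP1 and Rap1, 4 were lower and 2 higher in TR2. EVL, an actin-elongating protein, fell by 0.55. RASGRP2 (-0.51) and RASGRP1 (0.48), exchange factors for Rap and Ras, moved in opposite directions, but neither call stood without the block (adjusted p = 0.21 and 0.065).

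Cytotoxic granule genes were also split, with 4 of 11 tested higher in TR2 and 2 lower and a median of 0.229. NKG7, a granule membrane protein, read 359 and 281 in TR1 and 186 and 134 in TR2 (-1.01 ± 0.09), and granzyme GZMA read 749 and 1084 against 485 and 429 (-0.98 ± 0.12). Granzyme GZMH was not detected in TR1 and was at least 1.48-fold higher in TR2 (limma adjusted p = 3.4e-06), and the granule proteoglycan SRGN rose by 0.77. Of the NK cell markers, NCAM1 was 1 of the 2 bright enough to be tested, at 80.2 and 74.2 in TR1 and 93.4 and 106 in TR2 (0.37).

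Of 23 tested interferon-stimulated and RNA-sensing genes, 4 rose and 1 fell, with a median difference of 0.0762. The tethering protein BST2 was detected in TR2 and not in TR1, at least 1.36-fold higher, IFI35 fell by 0.56, the exonuclease ISG20 rose by 0.40, and IFITM3 was at least 1.09-fold higher. IFITM3 entered the test through its detection in TR2 alone, so its call is a description. The BST2 and ISG20 calls were lost without the block (adjusted p = 0.085 and 0.13). Without the first TR1 array or the first TR2 array 1 gene was called higher, and without the second TR2 array 2 were. In antigen presentation 1 of 14 genes rose (HLA-DMA, 0.31) and 1 fell (HLA-E, -0.38). These are 7.14% each way, near the 6.56% and 5.21% of all genes tested, and neither call stood without the block.

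Among growth and signalling genes, 0 of 24 tested genes of PI3K, AKT, mTOR and MAPK signalling were called by limma, and 6 had an unadjusted p under 0.05. MTOR (0.28, adjusted p = 0.059) and PIK3CB (-0.21, adjusted p = 0.13) had the lowest adjusted p. Of 32 mitotic genes 2 were lower (6.25%, against 5.21% of all genes), the phosphatase CDC25B (-0.46) and the kinase TTK (-0.37), whose call was lost without the first TR1 array (adjusted p = 0.071) or the second TR2 array (0.12). Of 23 replication and G1/S genes E2F2 (-0.33) was lower (4.35%), and 3 were higher (13%, against 6.56% of all genes). Those 3 were RRM2 (0.47), MCM7 (0.39, with 0.50 and an uncalled -0.07 on its other probes) and MCM3 (0.28). Without the first TR2 array the calls of all 3 were lost, that of RRM2 at an adjusted p of 0.054. The MCM3 and E2F2 calls were lost without the block (adjusted p = 0.085 and 0.19), MCM3 also without any single array of TR1, TR2 or TR3, MCM7 without the first TR1 array, and E2F2 without the first array of either clone.

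CDKN2D (p19), an inhibitor of cyclin-dependent kinases, was lower by 0.68 with a second probe at -0.30 (limma adjusted p = 0.061). It differed from WT by 0.71 in TR1 and 0.03 in TR2, so TR1 was the line set apart. TP53INP1 (-0.38) and RBL2 (-0.27) were the other 2 lower calls among 17 cell cycle inhibitors and p53 targets. Without the block, or without either TR1 array or the second TR2 array, 1 gene of the list was called lower. In the oxidative stress list SRXN1, which repairs peroxiredoxins, was the 1 called gene of 16, at 290 and 287 in TR1 and 580 and 556 in TR2 (0.98 ± 0.08, limma adjusted p = 9e-08). TR1 stood apart here, as TR3 and WT lay between 472 and 560.

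Of 15 immediate-early genes the feedback inhibitors SPRY1 (0.83) and SPRY2 (0.31) and the transcription factor EGR1 (0.75) were higher and JUND (-0.45) was lower. EGR1 read 382 and 444 in TR1 and 466 and 1024 in TR2, and its call, like that of SPRY2, was lost without the block (adjusted p = 0.49 and 0.13) and without the second TR1 array or the first TR2 array. Beside NRIP1, the coregulators CTBP2 (not detected in TR1, at least 1.12-fold) and NRIP3 (0.30) were higher and NCOA6 (-0.34) lower among 12 tested, and those 3 calls were lost without the block, as they were without the second TR1 array or either TR2 array. In the Hippo and midkine list 2 of 14 genes were called. They were the growth factor MDK (0.28, and 0.11 on its dimmer, uncalled probe) and its binding partner NCL (0.30). CYP51A1 (-0.34) was the 1 called of 13 cholesterol synthesis genes. None of these last 3 calls stood without the block, or without the second TR1 array or the first TR2 array.

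**Figure D5:**
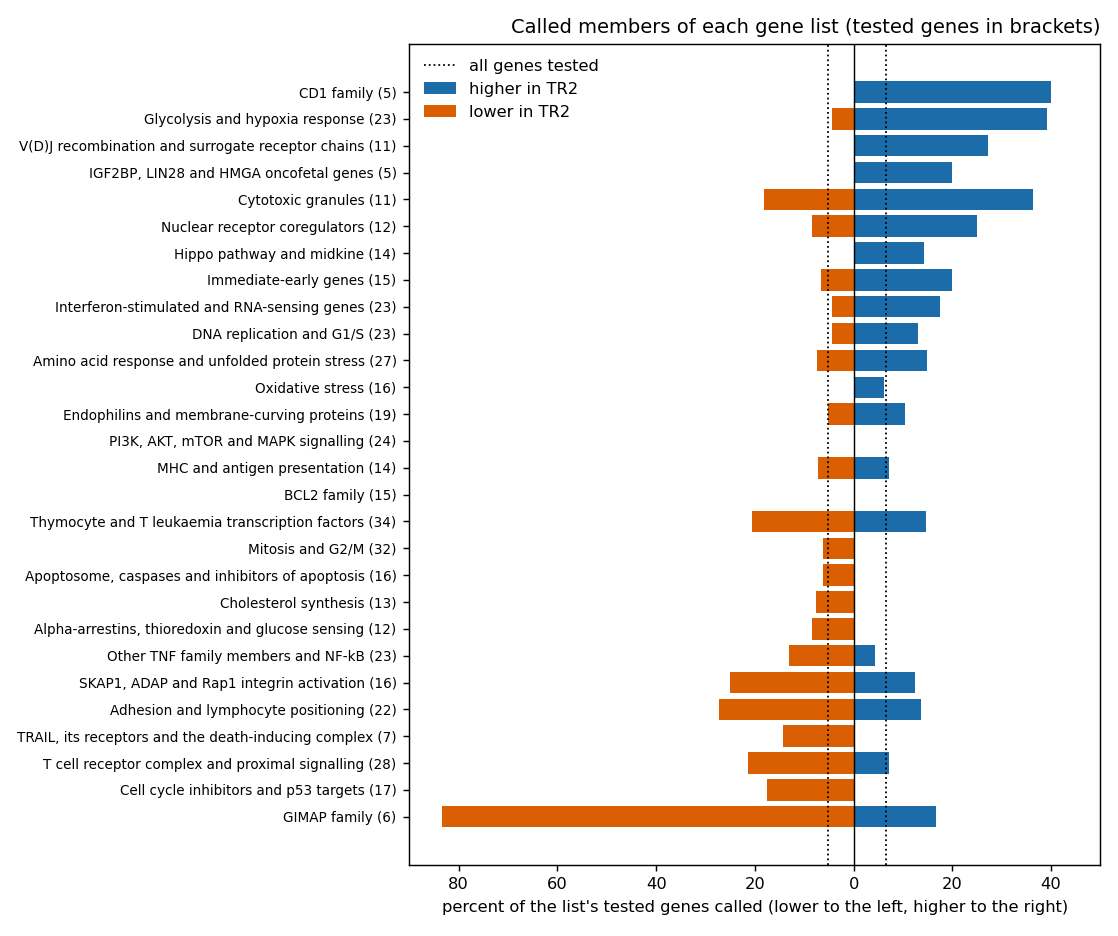
For each of 28 gene lists, the bars give the percent of its tested genes called higher in TR2 (blue, to the right) and lower (orange, to the left), with the number tested in brackets and dotted lines at the shares over all genes tested (6.56% and 5.21%). The GIMAP family, with 5 of 6 lower, reaches far past the dotted lines. So do the CD1 family (2 of 5 higher), glycolysis and hypoxia (9 of 23 higher) and cytotoxic granules (4 of 11 higher). Several other lists also pass the lines, while the BCL2 family and PI3K lists have no bar. The lists were chosen with earlier results of these data known, so the bars are a description. Without the replicate block 0 of the 23 glycolysis and hypoxia genes were called, whereas the 2 CD1 and 5 lower GIMAP calls were made.

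Detection separated the clones for a small set of probes. In all 11590 tested probes were detected on all 4 TR1 and TR2 arrays, 248 on both TR2 arrays and neither TR1 array, and 77 the other way round. Of the 248, 89 were called higher in TR2, and of the 77, 18 were called lower, where 6.26% and 5.02% of all probes tested were called. Both sets were picked by detection on the same arrays that the calls compare. Their larger shares follow in part from that choice and are a description. The TR2 arrays detected 12422 and 13437 probes and the TR1 arrays 12408 and 12613, and the part of this in the 248 and 77 was not tested. Among the 248, PPP2R2B, a regulatory subunit of the phosphatase PP2A, was at least 2.52-fold higher in TR2 (limma adjusted p = 3.9e-10), CABCOCO1, a ciliary protein gene, at least 2.32-fold, the actin-binding COBLL1 at least 2.10-fold and the monocarboxylate transporter family member SLC16A9 at least 1.94-fold. Bounds for DAAM2, ZNF792, TUBAL3 and NETO1 ran from 1.87 down to 1.58. These first 3 genes read between 56.1 and 62.5 in TR3 and between 102 and 126 in WT.

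In the other direction SKAP1 was followed by SH3BP5, an exchange factor for Rab11, which was at least 1.77-fold higher in TR1 (limma adjusted p = 3.6e-07). H2AC25, LRP2BP, RHBDF1, HAPLN3, LAMTOR5 and EIF4EBP1 had bounds of 1.27 to 1.14. RHBDF1 entered the test through its detection in TR1 alone, so its call is a description. These 6 calls were close to background and were lost without at least 1 single array.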

How the data were processed

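RNA of 8 samples, biological duplicates of WT, TR1, TR2 and TR3, was measured on Illumina HumanRef-8 arrays. The authors deposited linear probe intensity with a detection p-value per array, per the file headers, and processed intensities of the same arrays, whose scale and centring are not stated. These proved linear with 1 common distribution, equal to quantile normalised raw intensities to a median gap of 0.0031 to 0.00319 on the log2 scale. The submitters' processing notes name limma, with no version or role. The raw columns carry letters, which were not matched to replicate numbers, and 0 value columns were left unmatched to a line. No source used here gives the background subtraction or the chip positions, so batches were not tested.

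The log2 of the authors' processed values was fitted with limma 3.58.1 in R 4.3.3 (lmFit, eBayes) over all 8 arrays, with line and replicate number as terms. Residual degrees of freedom were 3, and the prior added 15.8. The number of arrays limits the precision. The test covered the 13130 of 22184 probes whose detection p lay under 0.05 on each array of some line. Calls required an adjusted p under 0.05 (Benjamini-Hochberg, over all tested probes), and where a gene had several probes the brightest on average stood for it. Symbols came from the platform annotation: 19715 probes had 1, 2469 had none, and 19695 were updated through the gene identifier to GRCh38.p14 names. A probe not detected on either array of a clone has only a bound there, computed on raw log2 intensities after quantile normalisation as the brighter clone's mean over the mean, per array, of the higher of the dim probe's value and the lowest detected value. The fit was checked on simulated data.

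Replicate numbers were taken as pairs because the rule set for this comparison pairs samples by the replicate number in their titles. The replicate 2 minus replicate 1 differences correlated between every pair of lines (r = 0.28 for TR1 and TR2, 0.28 to 0.432 in all, across probes). No label states what the numbers share. With the block, p-values measure the spread between duplicates that is left once the shift common to the numbered replicates is removed. That spread is also drawn towards a prior taken over all tested probes.

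The comparison, the 28 gene lists and 6 marker lists were chosen with earlier results of these data known. Genes are named as the 15 largest called differences in each direction, every measured TRAIL pathway gene, up to 4 called members of each other list or the 2 with the lowest adjusted p, and up to 8 called genes in each direction detected in 1 clone only. Other list members were named after their values were seen, to complete a count. Alternatives left out the block, the dim filter or single arrays, started from raw values, used the 4 arrays alone, or changed weights and prior. Promoter windows are 250 bases before 1 listed start per gene, from RefSeq, and other starts of a gene were not looked at.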

Additional observations from a re-analysis of the deposited data

Results flagged for a closer look

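For 21 of the 30 leading genes TR1 and TR2 were each called against WT, in opposite directions, and the difference between the clones was called as well, so these genes differ between subclones under the same contrast. Both contrasts share the WT arrays, and each gene's own values stand side by side here as log2 differences from limma. Called higher in TR2 than in WT and lower in TR1 were GPR183 (TR1 minus WT -1.54, TR2 minus WT 1.88, TR2 minus TR1 3.42), SH3GL2 (-1.75, 1.45 and 3.21), IGLL1 (-1.34, 1.69 and 3.03), IGF2BP2 (-1.43, 0.86 and 2.29), TMSB15A (-1.24, 0.81 and 2.06) and NRIP1 (-1.33, 0.53 and 1.86). The same order held for RAI14 (-0.94, 0.90 and 1.84), ZNF544 (-0.64, 1.13 and 1.77), ENHO (-1.06, 0.68 and 1.74), HERC5 (-1.21, 0.39 and 1.60) and ASNS (-1.06, 0.51 and 1.57).

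Called higher in TR1 than in WT and lower in TR2 were TXNIP (TR1 minus WT 2.56, TR2 minus WT -1.34, TR2 minus TR1 -3.90), ANXA1 (0.79, -2.36 and -3.15), FGD3 (1.55, -0.75 and -2.31), GIMAP7 (0.82, -0.93 and -1.75), S1PR1 (0.92, -0.54 and -1.46) and ADD3 (0.91, -0.51 and -1.42). MYLIP (0.77, -0.49 and -1.26), RIPOR2 (0.46, -0.73 and -1.19), CFLAR (0.68, -0.43 and -1.11) and SGK1 (0.52, -0.57 and -1.09) followed. The leading genes were chosen for their TR2 minus TR1 difference, so its size and the count of 21 are a description here. Over all genes the same pattern was met by 70 of 10681 tested (0.655%) and by 70 of the 1258 called between the clones (5.56%), and being called between the clones is part of the pattern.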

How the results depend on the processing

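The 822 probes higher and 659 lower in TR2 became 408 and 264 with no replicate block, 390 and 226 from raw intensities with normexp background correction and no block, 294 and 221 from raw intensities centred on each array's median with no block, and 428 and 277 on the 4 TR1 and TR2 arrays alone with no block. Leaving out each array in turn gave 417 to 983 higher and 219 to 825 lower, the lowest counts without TR2 replicate 2 and the highest without either WT array. TR1 replicate 2 (475 and 315), TR2 replicate 1 (512 and 356) and TR1 replicate 1 (580 and 387) also moved a count by over 1.5 times, and a clone with a lone array is then assumed to vary like the others. No dim filter (826 and 642), detection on all 4 arrays (687 and 609), the 4 arrays with the block (899 and 715, with 1 residual degree of freedom), array weights (909 and 729) and a trended robust prior (843 and 672) stayed within 1.5 times. The FADD difference, not called in any fit, ran from -0.121 to 0.013 over the fits without 1 array and turned sign without TR1 replicate 2 (0.0088) and without TR2 replicate 2 (0.013). Of 107 called genes among the 117 named, 58 kept their call in every alternative, 49 lost it in at least 1, 0 reversed, and 40 lost it without the replicate block. Of the leading genes, ADM, C22orf39 and KRT1 lost it without the block. Of 173 other probes of called genes, 45 were called the same way, 126 were not called, and 2, of ADA2 (-0.26) and KHK (-0.28), were called the opposite way to the representative (0.39 and 0.35). Probes near background bound a difference rather than measure it, as do values at the floor of 17.6.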

Other observations

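Genes called between the clones lay on every chromosome looked at. By chromosome, in the GRCh38.p14 annotation, the median log2 difference of tested genes, TR2 minus TR1, ran from -0.0348 on chromosome 18 to 0.0124 on chromosome 16. The share of genes called higher in TR2 ran from 3.62% on chromosome 18 to 11.5% on chromosome 4 (41 of 357), and the share called lower from 3.49% on chromosome 3 to 6.42% on chromosome 14. Over all genes tested these shares were 6.56% and 5.21%. In windows of 20 neighbouring tested genes the median ran from -0.162, between ZNF611 and MBOAT7 on chromosome 19, to 0.17, between MCRIP2 and TSR3 on chromosome 16. A median over many genes is bound to be smaller than the leading single-gene differences. Whether any region differed between the clones was not tested.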
